A study of Mus musculus with 24 samples.

Results

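The comparison described here is that of curcumin liposomes with empty liposomes in the liver cells that carried no liposome dye. Female C57BL/6 mice had steatohepatitis brought on by 2 weeks of feeding without methionine and choline, and were then injected intravenously with liposomes labelled with the membrane dye DiI and either empty or loaded with curcumin. At 24 hours, the CD11c+ MHC class II+ cells of the liver were split by DiI, and low-input RNA sequencing was done on the DiI-positive and DiI-negative fractions. All groups thus share the diet, the dye and the liposome carrier. The DiI-negative fraction gave 6 of the 12 libraries, 3 after curcumin liposomes and 3 after empty liposomes, called curcumin and empty libraries below. Of 45792 genes in the deposited table, 14227 had a mean log2 value of 4 or more over the 12 libraries and were tested. The library codes were read against the design text (EL and CL for the liposome, P and N for DiI), and 2 sample records share each code. Neither the labels nor the design text tell if a library is 1 mouse or a pool of mice. The p-values therefore measure the spread between libraries, which may be technical. No untreated mice and no group on a control diet were analysed here.

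Curcumin is a plant polyphenol known for dampening NF-kB signalling and the output of inflammatory cytokines, and for switching on NRF2, the factor that drives antioxidant genes such as Hmox1. Dendritic cells present antigen on MHC class II to T cells and set the tone of that encounter through costimulatory ligands and cytokines. In the liver they lie beside Kupffer cells and the sinusoidal endothelium, which clear particles from the blood. DiI-negative cells are those of the same gate in which the dye was not detected, so the comparison asks what differed in the neighbours of the cells that had taken up the particles.

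The DiI-negative libraries were alike, with correlations between pairs from 0.9895 to 0.9942 over the genes tested. Read numbers are not given by the values. A relative depth index taken from single-count genes spanned 1.61-fold over the 12 libraries. It ran from 1.02 to 1.13 in the curcumin and from 0.997 to 1.28 in the empty DiI-negative libraries. The index is rough, as it rests on 14 to 89 genes in each DiI-negative library and on as few as 2 in a DiI-positive one. The gate genes were high in all 6. Itgax (CD11c) ran from 12.95 to 13.48 and Cd74, the class II invariant chain, from 19.18 to 19.33. The dendritic cell factors Zbtb46 (10.47 to 12.09) and Flt3 (12 to 13.47) were also present. So were Adgre1 of the Kupffer cell list (12.48 to 13.55) and Csf3r of the neutrophil list (11.76 to 13.59). Ly6g, Camp, Elane and Mpo of the neutrophil list were below the filter, so Csf3r does not by itself show neutrophil RNA. None of the cell type markers looked up was listed at 0 in all libraries, a bar that any other value meets. The mean level of the B cell markers ran from 11.42 to 12.11 in the 6 libraries, and that of NK and cytotoxic markers from 9.30 to 9.94. Marker RNA of other cell types was thus present beside that of dendritic cells. In bulk RNA, fewer cells of a type and less RNA per cell cannot be told apart. On the first principal component of the 6 libraries (29.5% of their variance), curcumin replicate 3 stood apart at 25.1. The other 5 lay between -13.1 and 4.5. On the second component (21.1%), the curcumin libraries lay at 6, 18.4 and 0.8 and the empty ones at -3.5, -4.4 and -17.4. That split was not tested.

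No gene passed the test. Of 14227 genes, 0 (0.00%) had a limma adjusted p under 0.05, and 469 (3.30%) had an unadjusted p under 0.05, 215 higher (1.51%) and 254 lower (1.79%) after curcumin. The smallest adjusted p was 0.72 (Chl1) and the next 0.94. The 3 curcumin libraries lay wholly above the 3 empty libraries for 815 genes (5.73%) and wholly below them for 782 (5.50%). Mean values were higher after curcumin for 7118 genes (50.0%) and lower for 7109 (50.0%), with a median log2 difference of 0.0.

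The libraries limited the size of change that could have gone unseen. The 95% interval of the log2 difference lay wholly within ±1, a 2-fold change on the deposited scale, for 13563 genes (95.3%), and within ±0.5 for 7904 (55.6%). The interval's half-width had a median of 0.35, with 0.18 and 0.71 at the 5th and 95th percentiles over genes. Among the 8623 genes with a mean of 8 or more, 96.3% had an interval within ±1. These intervals hold gene by gene, not for all genes at once, and the deposited scale shrinks the differences of low genes.

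**Figure D1:**
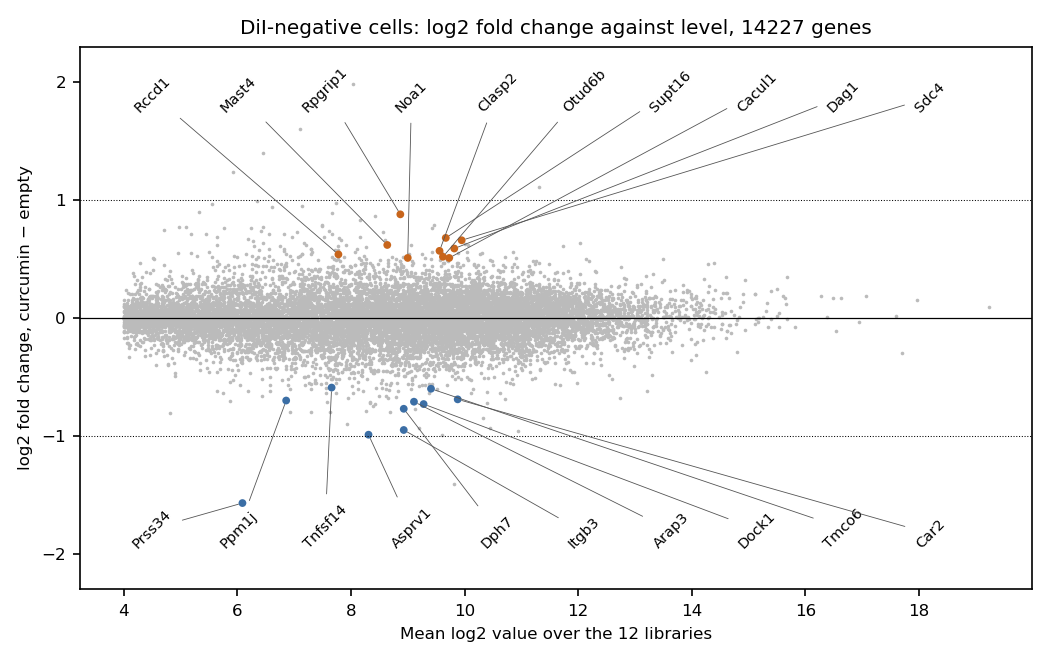
Log2 difference between the curcumin and empty DiI-negative libraries (vertical axis) against the mean log2 value over the 12 libraries (horizontal axis), 1 point for each of the 14227 genes, with the 10 genes of each direction picked by the naming rule in colour and the dotted lines at ±1. Differences crowd around 0 at every level, and none of the coloured genes passed the limma test after adjustment.

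Genes were named by a fixed rule: groups that did not overlap, an unadjusted p under 0.01, a mean of 6 or more, then the 10 largest differences each way, plus the 5 smallest p-values. The rule admitted 25 higher and 30 lower genes. Since it selects on this contrast, the values that follow describe these genes and support nothing further. All had adjusted p-values of 0.72 to 1.0 in limma.

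Prss34, a serine protease of basophils (GRCm38, chromosome 17, 25298394 to 25300165), had the largest lower difference. It stood at 5.83, 6.13 and 5.36 in the curcumin and at 7.11, 7.06 and 7.87 in the empty libraries, with no overlap. The log2 difference was -1.57 ± 0.29 (SE; 95% interval -2.22 to -0.93; limma unadjusted p = 0.0002, adjusted p = 0.94). In DiI-positive cells, its means were 5.57 after curcumin and 5.65 after empty liposomes, a difference of -0.08. The difference between gates had a limma unadjusted p of 0.004. The DiI-positive values went down to 5.37, beside 5.36 in curcumin replicate 3 of the DiI-negative cells, the lowest of the 12. So low a level left little room for a fall in DiI-positive cells, and the p between gates cannot show an effect particular to a gate. Other basophil and mast cell genes differed less, from -0.69 for Hdc, the histamine-forming enzyme, to -0.01 for Mcpt8, another basophil protease. Without curcumin replicate 3, Prss34 differed by -1.37, Hdc by -0.31, the receptor Cd200r3 by -0.09 (-0.53 with it) and the IgE receptor chain Fcer1a by -0.02 (-0.35 with it).

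Chl1, a cell adhesion molecule of the L1 family (chromosome 6, 103510586 to 103750211), had the smallest p of all genes. Its values were 4.66, 4.54 and 4.79 after curcumin and 5.43, 5.18 and 5.82 after empty liposomes, a difference of -0.81 ± 0.13 (interval -1.10 to -0.53; limma unadjusted p = 5.1e-05, adjusted p = 0.72). The groups did not overlap, but the level was near the filter, where the scale is most shrunken. Chl1 read 4.54, its lowest value, in curcumin replicate 2 and in every DiI-positive library (SD 0.0 in both DiI-positive groups). The fit takes its spread from all 12 libraries, so these equal values narrow the SE and lower the p. Gpr15, a chemoattractant receptor, and Mrgpra2b, a receptor of neutrophils, were also lower without overlap, with differences of -0.49 and -0.57.

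Itgb3, the integrin beta-3 chain found on platelets and macrophages (chromosome 11, 104608000 to 104670476), read 8.37, 8.50 and 8.81 after curcumin and 9.77, 9.21 and 9.53 after empty liposomes. All 3 curcumin libraries were lower, by -0.95 ± 0.21 on average, while DiI-positive cells showed 0.24. Its platelet partner Itga2b differed by -0.44, or by -0.10 without curcumin replicate 3, and Itgav, its partner on phagocytes, by -0.28. The other lower genes were Asprv1 (-0.99), the diphthamide enzyme Dph7 (-0.77), the engulfment factor Dock1 (-0.73), the GTPase activator Arap3 (-0.71), the phosphatase Ppm1j (-0.70), the carbonic anhydrase Car2 (-0.69), Tmco6 (-0.60) and the T cell costimulator Tnfsf14 (-0.59).

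Rpgrip1, best known as a scaffold at the photoreceptor cilium (chromosome 14, 52110704 to 52163546), had the largest higher difference under the rule. It read 9.36, 8.99 and 9.58 after curcumin and 8.77, 8.12 and 8.40 after empty liposomes, a difference of 0.88 ± 0.21 (interval 0.41 to 1.34). Sdc4, a heparan sulfate proteoglycan of the cell surface (chromosome 2, 164424247 to 164443887), read 10, 10.40 and 10.24 against 9.34, 9.50 and 9.81, a difference of 0.66 ± 0.17. Both were separate between groups, and both were higher after curcumin in DiI-positive cells too, by 0.56 and 0.42. The remaining 8 were the histone chaperone subunit Supt16 (0.68), the kinase Mast4 (0.62), dystroglycan Dag1 (0.59), the microtubule-end protein Clasp2 (0.57), Rccd1 (0.54), the deubiquitinase Otud6b (0.52), the mitochondrial GTPase Noa1 (0.51) and Cacul1 (0.51). Supt16, Clasp2, Otud6b and Rccd1 differed in DiI-positive cells by 0.29, 0.19, 0.27 and 0.12, whereas Mast4 and Dag1 differed there by -0.16 and -0.29. The annotated spans of Supt16 (chromosome 14, 52160414 to 52197416) and Rpgrip1 overlap. Whether reads of the shared stretch entered both values was not tested.

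**Figure D2:**
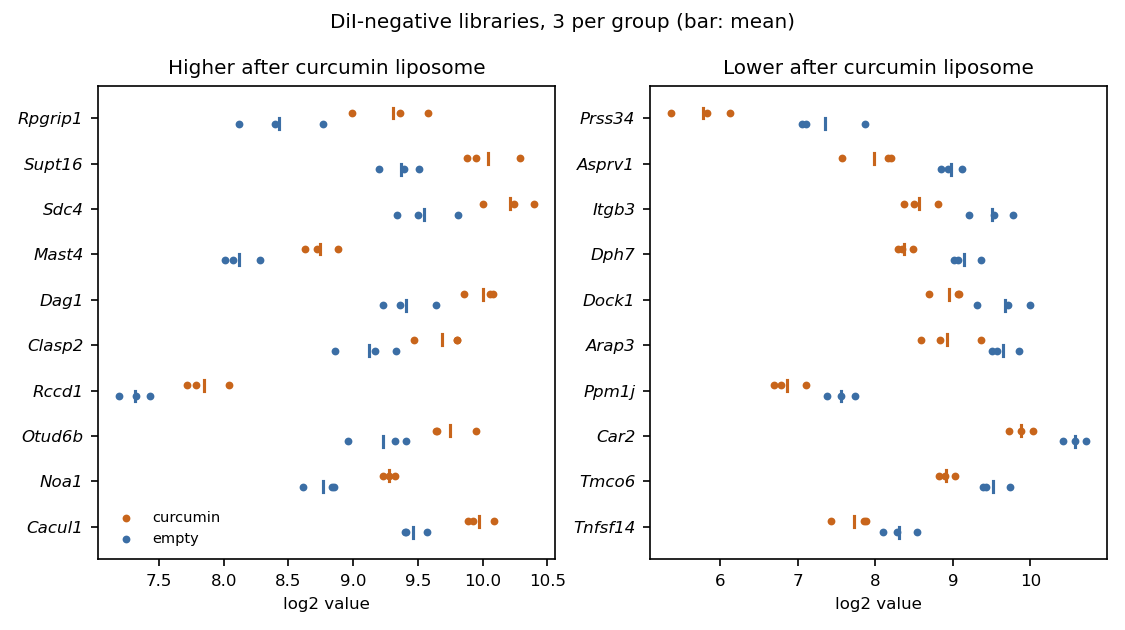
Log2 values (horizontal axes) of the 10 higher and the 10 lower genes picked by the naming rule in each of the 3 curcumin and 3 empty DiI-negative libraries (points), with the group mean as a bar. The groups do not overlap for any of the 20, which the rule requires, and Prss34 has the widest gap.

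NF-kB subunit and inhibitor genes showed no member past the test. These are transcript levels, and the activity of the NF-kB proteins was not measured. Of 14 subunits and inhibitors tested, 11 had higher and 3 lower mean values after curcumin, and the median difference was 0.12 (all genes tested: 0.0). The 95% intervals of all 14 lay within ±1 (all genes: 95.3%). Nfkbia, the inhibitor IkB-alpha that NF-kB itself induces, read 14.22, 14.33 and 14.18 after curcumin and 13.94, 14.09 and 14.09 after empty liposomes. Its curcumin libraries were all higher, but the difference of 0.20 had an interval of -0.01 to 0.41. Nfkbiz, an atypical nuclear IkB, differed by 0.36 (interval 0.08 to 0.64) and Nfkbie, another inhibitor, by 0.24. Both went the other way in DiI-positive cells, at -0.14 and -0.19, with unadjusted p-values for the difference between gates of 0.016 and 0.019 (smallest adjusted p of any gene for that difference: 0.999). The subunits Rela and Nfkb1 differed by -0.03 (interval -0.30 to 0.23) and 0.04 (-0.20 to 0.28).

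Inflammatory cytokines differed in both directions, 9 of 15 tested higher and 6 lower, with a median of 0.01. Il1b, the inflammasome-processed cytokine, stood at 12.08, 12.07 and 11.15 after curcumin and at 11.82, 12.21 and 12.65 after empty liposomes. The groups overlapped, curcumin replicate 3 was the lowest, and the difference was -0.46 (interval -1 to 0.08), or -0.15 without that library. Tnf read 8.06, 8.11 and 7.75 against 7.65, 7.55 and 8.32, overlapping, with a difference of 0.13 (-0.33 to 0.60). Il6 (0.11, interval -0.10 to 0.31), Il12b (-0.05, -0.42 to 0.32) and Il10 (0.03, -0.20 to 0.26) had low values, near the filter. Il6 read 4.62 to 4.63 in all DiI-positive libraries, and Il10 4.19 to 4.29 in the DiI-negative ones. Il12b read 4.19, its lowest value, in libraries of every group. Such near-equal low values narrow the intervals of the shared fit, so these do not bound a change at so low a level. Tnfsf9, the 4-1BB ligand that costimulates T cells, was separate at 8.27, 8.43 and 8.73 against 7.97, 7.51 and 7.91, a difference of 0.68 (-0.02 to 1.37).

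Chemokine genes were higher for 11 of 14 (median 0.06). Ccl22, made by mature dendritic cells to draw regulatory T cells, read 9.16, 9.88 and 9.69 after curcumin and 9.19, 8.68 and 8.66 after empty liposomes. Replicate 1 of the 2 groups came out alike, and the difference of 0.73 (0.13 to 1.34) was matched by 0.61 in DiI-positive cells. Ccl24, an eosinophil attractant, differed by 0.53 through curcumin replicate 2 alone (8.97, against 7.26 to 7.81 in the other 5). The inflammasome genes had a median of 0.01 over 11, with all intervals within ±1 (all genes: 95.3%). Nlrc4, an inflammasome protein engaged by bacterial flagellin, read 9.75, 9.52 and 9.16 against 9.16, 8.76 and 8.97, separate by a margin too small to show at 2 decimals, with a difference of 0.51 (0.08 to 0.94). Toll-like receptor genes had a median of 0.05 over 18. The largest difference was in Tlr12, a sensor of parasite profilin, at 0.56 (0.09 to 1.03), against -0.13 in DiI-positive cells.

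NRF2 targets were split, 13 of 23 tested higher and 10 lower, with a median of 0.01. No member was separate between groups (all genes: 5.73% above and 5.50% below). The interval lay within ±1 for 22 of 23 (all genes: 95.3%). The exception was Hmox1, heme oxygenase-1 (chromosome 8, 75093621 to 75100589), at 11.84, 12.58 and 11.63 after curcumin and 11.76, 11.47 and 11.38 after empty liposomes. Curcumin replicate 2 was high and replicate 3 lay below empty replicate 1, so the groups overlapped. The difference of 0.48 had an interval of -0.16 to 1.12, and DiI-positive cells showed 0.70. The widest lower differences were in the NRF2 partner Mafg (-0.35, interval -0.77 to 0.07) and glutathione reductase Gsr (-0.35, -0.96 to 0.26). Other targets lay between these and Hmox1, with Nqo1 at -0.12 (-0.43 to 0.19), Txnrd1 at -0.05 (-0.46 to 0.37), Slc7a11 at 0.02 (-0.50 to 0.53), Gclm at 0.26 (-0.34 to 0.86) and the ferritin chain Fth1 at 0.19 (-0.10 to 0.47). Osgin1, an oxidative stress target, differed by -0.25 here and by 0.54 in DiI-positive cells (unadjusted p for the difference between gates 0.0051). NRF2 itself (Nfe2l2, 0.12) and its repressor Keap1 (0.08) had intervals of -0.21 to 0.44 and -0.31 to 0.48. Glutathione and antioxidant enzymes had a median of 0.03 over 14, with all intervals within ±1 (all genes: 95.3%).

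**Figure D3:**
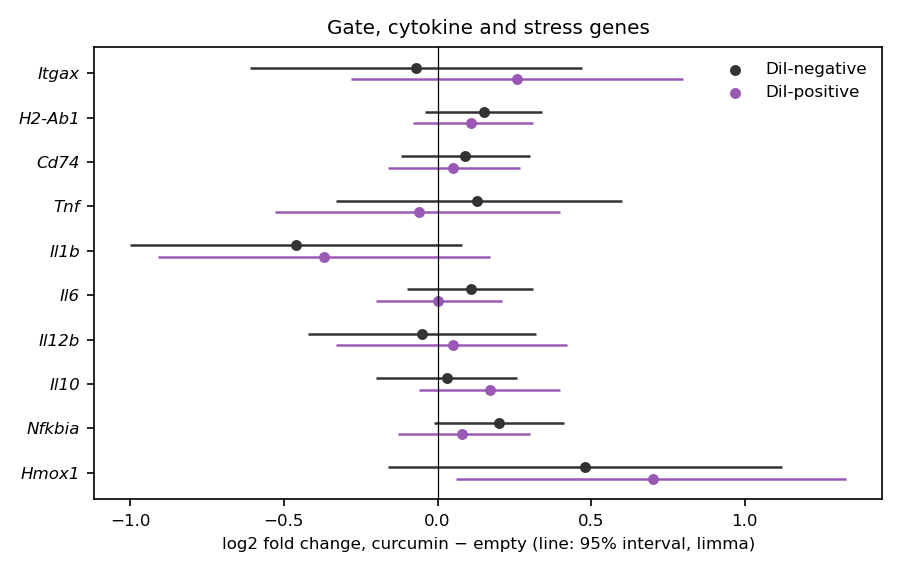
Log2 difference between curcumin and empty libraries (points) with its 95% limma interval (lines) for 10 genes, in DiI-negative (dark) and DiI-positive (purple) cells. The genes are those of the gate, cytokines, Nfkbia and Hmox1. Every DiI-negative interval includes 0, from the narrow ones of H2-Ab1 and Cd74 to the wide one of Hmox1.

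MHC class II genes, which define the gate, were higher for 10 of 14 (median 0.13), with 3 separate above (all genes: 5.73%). All 14 intervals lay within ±1 (all genes: 95.3%). H2-DMb1, a chain of the peptide-loading catalyst, was separate at 13.86, 13.94 and 14.01 after curcumin and 13.77, 13.65 and 13.69 after empty liposomes, a difference of 0.23 (0.07 to 0.40) beside 0.26 in DiI-positive cells. The class II chains H2-Aa, H2-Ab1 and H2-Eb1 differed by 0.19, 0.15 and 0.19. Ciita, the master activator of class II, differed by 0.32 (-0.02 to 0.66) here and by -0.22 in DiI-positive cells. Class I and immunoproteasome genes were higher for 12 of 13 by small amounts (median 0.03). The exception was Nlrc5, the class I activator, which was separate and lower by -0.29 (-0.54 to -0.03).

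Among costimulatory and inhibitory ligands, 9 of 12 were higher (median 0.13), 5 separate above (all genes: 5.73%) and 1 below (5.50%). Havcr2, the checkpoint receptor TIM-3 that is also found on dendritic cells, read 11.58, 11.54 and 11.94 after curcumin and 11.14, 11.29 and 11.19 after empty liposomes. Cd86, a ligand of CD28, read 11.74, 11.73 and 11.95 against 11.40, 11.56 and 11.56. The groups were apart for both, with differences of 0.48 (0.16 to 0.80) and 0.30 (0.03 to 0.58), and DiI-positive cells gave 0.48 and 0.31. Havcr2 had a limma unadjusted p of 0.0073 and an adjusted p of 1.0. The genes of mature migratory dendritic cells had a median of 0.12, Cd83 among them at 0.36 (0.04 to 0.69). Interferon-stimulated genes were lower for 13 of 18 (median -0.08, and 0.06 without curcumin replicate 3) and went both ways, with Ifit1 lower and Mx1 higher. Ifit1 differed by -0.56 (-1.07 to -0.04) and Mx1 by 0.35 (0.01 to 0.69).

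Heat shock genes had the highest median of the 26 pathway lists, 0.21, with 10 of 11 higher and 3 separate above (all genes: 5.73%). The list means overlapped, at 12.1, 12.34 and 12.33 after curcumin and 11.95, 11.97 and 12.15 after empty liposomes. Hspa8, the constitutive HSP70 chaperone (chromosome 9, 40800984 to 40810087), read 15.89, 16.03 and 16.04 after curcumin and 15.60, 15.72 and 15.61 after empty liposomes. Its co-chaperone Dnaja1 read 12.38, 12.45 and 12.79 against 11.99, 12.25 and 12.21. All curcumin libraries were above all empty ones for both, with differences of 0.35 (0.12 to 0.57) and 0.39 (0.12 to 0.66), and Hsp90ab1 was separate at 0.21 (0.02 to 0.39). Hspa1a, the inducible HSP70, differed more but overlapped (0.50, interval -0.04 to 1.05). In DiI-positive cells the list's median was 0.29, and in DiI-negative cells without curcumin replicate 3 it was 0.27. Heat shock transcripts also respond to tissue dissociation and sorting, and immediate early genes, which do so as well, had a median of 0.06 over 18. Of these, 4 were separate above (all genes: 5.73%) and 1 below (5.50%), with Atf3 at 0.46 (0.10 to 0.81), Zfp36 at 0.26 and Jun at 0.24. The part of handling in these values was not tested.

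Sterol biosynthesis genes were higher for 13 of 19 (median 0.17, against 0.02 in DiI-positive cells), 5 separate above (all genes: 5.73%) and 2 below (5.50%). All 19 intervals lay within ±1 (all genes: 95.3%). Mvd, mevalonate decarboxylase, read 10.46, 10.71 and 10.39 after curcumin and 10.22, 10.26 and 10.28 after empty liposomes. Idi1, the isomerase that follows it, read 7.40, 7.38 and 7.54 against 6.99, 7.15 and 7.21. These were separate, by 0.27 (0.02 to 0.52) and 0.32 (-0.02 to 0.66). In DiI-positive cells they differed by -0.09 and 0.18 (unadjusted p for the difference between gates 0.047 and 0.53). Of the targets of LXR, the oxysterol receptor, Mylip, which removes the LDL receptor, was separate and lower by -0.37 (-0.60 to -0.14), while the list's median was -0.05 over 14. Fatty acid oxidation genes had a median of 0.02 over 16, with Acadl separate at 0.27 and at -0.29 in DiI-positive cells.

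Cytosolic ribosomal protein genes were higher for all 18 tested, by 0.05 to 0.25 (median 0.16, and 0.14 in DiI-positive cells). Of the 18, 3 were separate above (all genes: 5.73%). Their list means overlapped, at 12.96, 13.19 and 13.08 after curcumin and 13.03, 12.84 and 12.91 after empty liposomes. Members of a list are not independent replicates, so their shared direction adds no libraries. Respiratory chain genes (median 0.04 over 18) and hypoxia and glycolysis genes (0.02 over 16) had every interval within ±1 (all genes: 95.3%). Medians were 0.03 for unfolded protein and ATF4 response genes over 14 and -0.04 for p53 targets over 12. They were -0.02 for cell cycle genes over 20, 0.00 for lysosomal genes over 18 and 0.05 for iron and heme genes over 16. Among p53 targets, Cdkn1a, the cell cycle inhibitor p21, was separate at 9.22, 9.53 and 9.37 against 8.95, 8.97 and 8.86, a difference of 0.44 (0.14 to 0.74), against 0.07 in DiI-positive cells. Scavenger and efferocytosis receptors had a median of -0.10 over 16. TGF-beta and fibrosis mediators had a median of -0.02 over 13, where Mmp9 (-0.93, or -0.45 without curcumin replicate 3) is also a neutrophil gene.

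**Figure D4:**
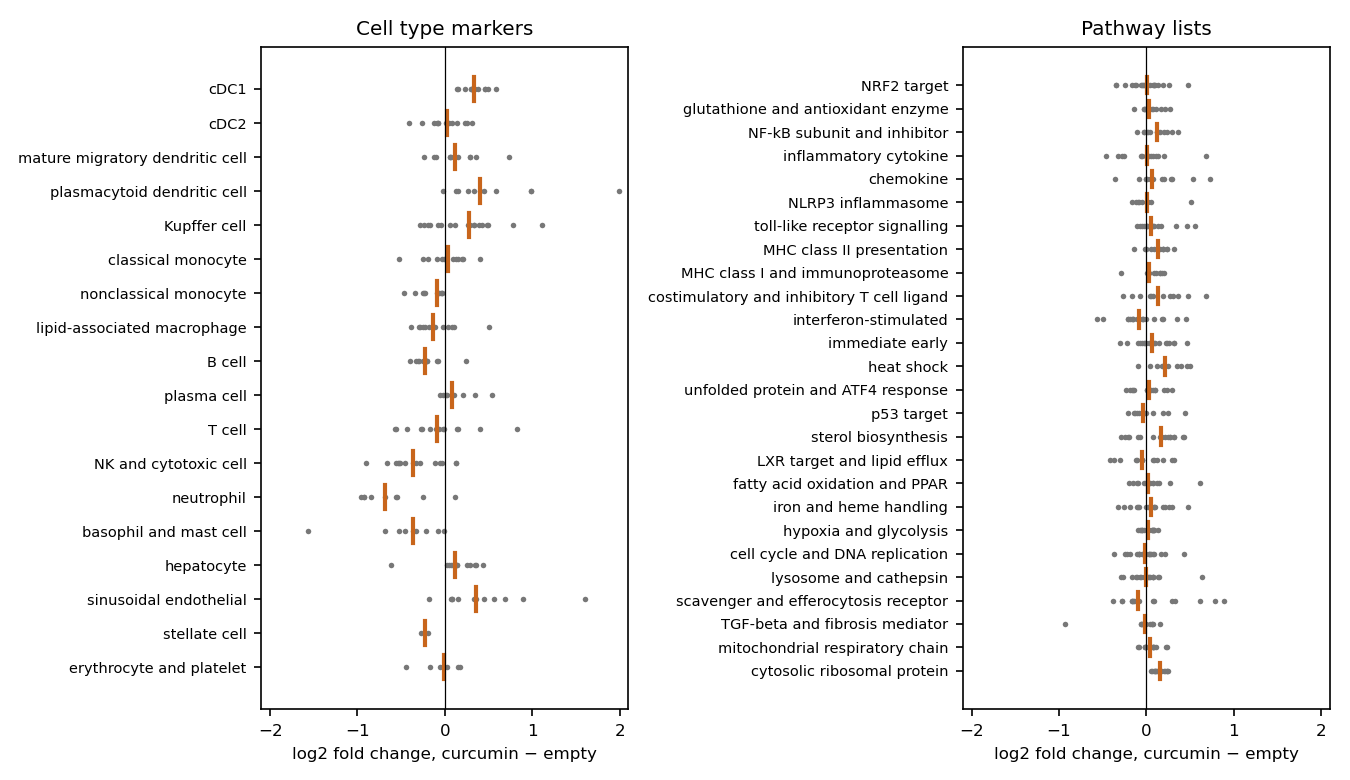
Log2 difference between curcumin and empty DiI-negative libraries (horizontal axes) for every tested member (grey points) and the median (bar) of the 18 cell type lists and the 26 pathway lists. Pathway medians lie between -0.10 and 0.21, whereas cell type medians run from -0.68 for neutrophils to 0.40 for plasmacytoid dendritic cells, and no member passed the limma test.

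Cell type markers spread more widely than pathway genes, and for several types 1 library, curcumin replicate 3, set the value. Markers of cDC1, the cross-presenting dendritic cells, were higher for 12 of 12 with a median of 0.33. Their mean level was 10.63, 10.15 and 11.46 in the curcumin and 10.46, 10.29 and 10.45 in the empty libraries. Only curcumin replicate 3 stood above the empty range by a wide step, and without it the median was -0.04. Xcr1, the chemokine receptor that marks cDC1, read 10.72 there against 8.35 to 9.78 in the other 5. The cDC2 markers, of the dendritic cells that present to CD4 T cells, had a median of 0.02 over 14, with list means from 10.26 to 10.43 in all 6 libraries.

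Plasmacytoid dendritic cells, the interferon producers, had 10 of 11 markers higher (median 0.40). The list mean was 8.94, 8.54 and 9.85 after curcumin and 8.25, 8.50 and 8.88 after empty liposomes. Siglech, their defining lectin, read 9.08, 7.83 and 11.48 against 6.04, 7.70 and 8.69, an overlapping pair of groups with a difference of 1.99 (-0.51 to 4.49). Without curcumin replicate 3 Siglech differed by 0.98 and the median was 0.22. Sinusoidal endothelial markers were higher for 11 of 12 (median 0.35), with list means of 7.10, 6.98 and 7.95 against 6.96, 6.88 and 6.92. Stab2, their hyaluronan scavenger receptor, was 8.58 in curcumin replicate 3 and 5.48 to 5.87 in the other 5, and the list's median without that library was -0.01.

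Neutrophil markers were the lowest list, 8 of 9 tested lower (4 of the 13 looked up were below the filter) with a median of -0.68. Of the 9, 3 were separate below (all genes: 5.50%) and 5 were lower at an unadjusted p under 0.05 (all genes: 1.79%). S100a9, a subunit of calprotectin, read 11.18, 11.16 and 9.75 after curcumin and 11.45, 11.65 and 11.87 after empty liposomes, a difference of -0.96 (-1.81 to -0.12). S100a8 (-0.85) and Retnlg (-0.93) were separate too. Without curcumin replicate 3 the differences of S100a9, S100a8 and Retnlg were -0.49, -0.40 and -0.53. List means were 9.34, 9.43 and 8.21 against 9.32, 9.89 and 9.64, so curcumin replicate 3 was again the far library, and without it the median was -0.30. The median in DiI-positive cells was -0.54. Basophil and mast cell markers were lower for 10 of 10 (median -0.36, and -0.05 without curcumin replicate 3), with list means of 7.92, 7.72 and 7.05 against 8.07, 7.90 and 8.10. Prss34 and Hdc were the 2 separate members (all genes, below: 5.50%).

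Lymphocyte markers were also mostly lower. NK and cytotoxic markers were lower for 13 of 15 (median -0.36), 5 of them separate below (all genes: 5.50%), and the median kept between -0.47 and -0.31 when any 1 of the 6 libraries was left out. Their list means were 9.57, 9.34 and 9.30 after curcumin and 9.94, 9.55 and 9.75 after empty liposomes. Nkg7, a cytotoxic granule protein, read 11.09, 11 and 10.75 against 11.60, 11.37 and 11.37, and Tbx21, the T-bet factor, 9.47, 9.51 and 9.24 against 10.14, 9.62 and 10.14. Both were separate, by -0.51 (-0.95 to -0.06) and -0.56 (-1.05 to -0.07). In DiI-positive cells the NK median was -0.12. T cell markers were lower for 11 of 15 and higher for 4, with a median of -0.09 (-0.22 without curcumin replicate 3). Lck (-0.56), Trbc1 (-0.57), Cd3d (-0.27) and Trbc2 (-0.26) were separate below (all genes: 5.50%). The widest difference of the list went the other way, in the coreceptor Cd4, at 0.83 (-0.36 to 2.03), where curcumin replicate 3 read 9.62 and the other 5 libraries 7.40 to 8.26. Il7r (0.40), Cd3g (0.15) and Cd28 (0.14) were the other higher members. B cell markers were lower for 13 of 14 (median -0.23, and -0.05 without curcumin replicate 3).

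Kupffer cell markers had a median of 0.28 over 19 (13 higher), which was 0.11 without curcumin replicate 3, 0.12 without empty replicate 1 and 0.07 without empty replicate 2. Clec4f, the Kupffer cell lectin, was separate at 9.24, 9.16 and 10.45 against 7.97, 8.80 and 8.75, with a difference of 1.11 (-0.13 to 2.36), or 0.69 without curcumin replicate 3. In DiI-positive cells the Kupffer median was 0.66 and Clec4f differed by 1.11. Classical monocyte markers had a median of 0.04, and 0.29 without curcumin replicate 3, which had the lowest list mean of the 6 at 12.40. Nonclassical monocyte (-0.09, 11 of 11 lower), lipid-associated macrophage (-0.14), hepatocyte (0.12), plasma cell (0.08) and erythrocyte and platelet (-0.01) medians were nearer to 0. Without curcumin replicate 3 the first of these was 0.02 and the lipid-associated macrophage median 0.09. Only 2 stellate cell markers were tested. The part of cell make-up in the gene differences above was not tested.

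**Figure D5:**
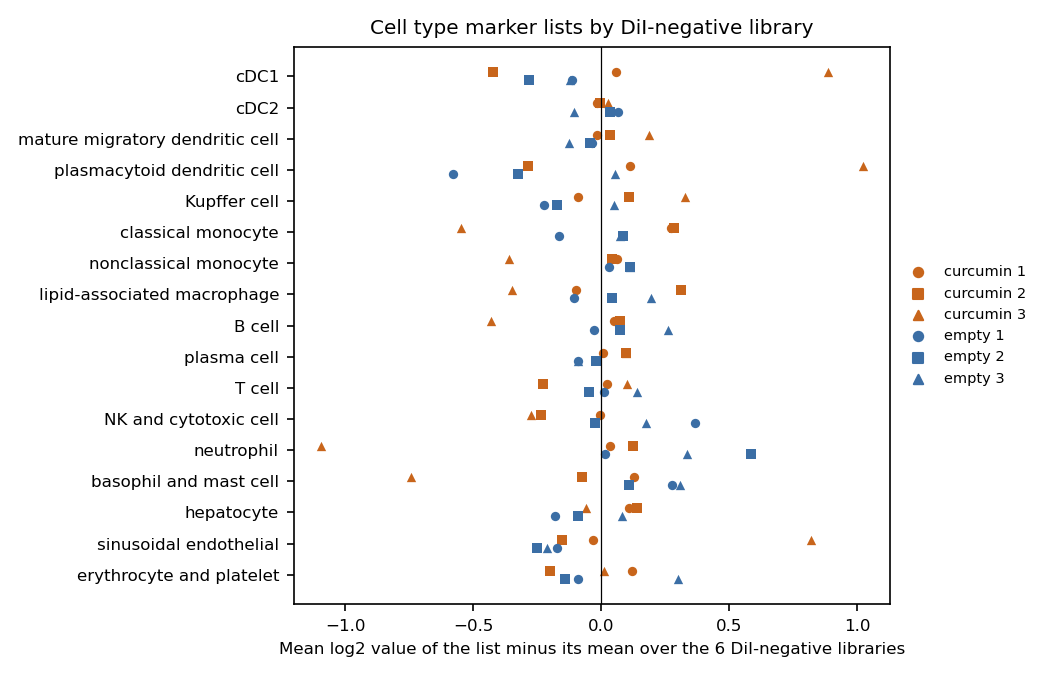
Mean log2 value of each cell type list in each of the 6 DiI-negative libraries, as the difference from that list's mean over the 6 (horizontal axis), with colour for the liposome and symbol for the replicate. The stellate list, with 2 tested members, is left out, and curcumin replicate 3 (orange triangle) lies far to the right for cDC1, plasmacytoid and endothelial markers and far to the left for neutrophil and basophil markers.

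Curcumin replicate 3 of the DiI-positive cells stood out for several of the same lists, though not for neutrophil and basophil markers. Its neutrophil mean was 8.28, against 8.25 to 9.25 in the other 5 DiI-positive libraries, and its basophil and mast cell mean 6.84, against 6.61 to 6.89. There the cDC1 mean was 10.98 against 9.70 to 9.80 in the other 5 DiI-positive libraries, the plasmacytoid mean 9.81 against 8.26 to 8.60, the endothelial mean 9.91 against 7.22 to 7.73 and the B cell mean 12.16 against 13 to 13.32. Deviations of the 2 libraries from their group means correlated across genes with r = 0.328, a description over genes that are not independent. Replicates 1 and 2 of the curcumin groups gave 0.066 and 0.035 across gates, and pairs of curcumin libraries with different numbers ran from -0.245 to 0.197. The labels do not tell whether the number 3 marks the same animals.

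The curcumin differences of the 2 gates could be set against each other because they share no library. Across the 14227 genes they correlated with r = 0.23 (Spearman 0.19), where genes are not independent replicates and animals may be shared. In DiI-positive cells 0 genes (0.00%) passed the limma test and 1165 had an unadjusted p under 0.05, with a smallest adjusted p of 0.30. The difference between gates gave 0 genes (0.00%) and 527 at an unadjusted p under 0.05, with a smallest adjusted p of 0.999. None of the differences named above was thus shown to be particular to DiI-negative cells.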

How the data were processed

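Per the labels' protocols, cDNA was amplified from low input with a SMARTer kit, and Nextera XT was used for the libraries. The deposited values are log2 values per gene from the authors. Their tools were DESeq2 1.8.1 and STAR 2.4.0d with the GRCm38 build, per the submitters' processing notes. Of the read counter, annotation and transform it can be said only that they are not given in the labels or headers. Judged by its spread at low levels the scale is a shrunken one, which understates differences of low genes. Values run from -3.62 to 19.4, with 20918 of the 45792 genes at 0 throughout. Symbols and coordinates came from GENCODE M21 on GRCm38, and 99.3% of the other 24874 genes had one.

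All 12 libraries entered 1 limma 3.58.1 fit (R 4.3.3) with a mean per group, variance trend, 8 residual and 3.51 prior degrees of freedom and Benjamini-Hochberg adjustment over the 14227 genes with a mean of 4 or more. Tests were two-sided, with adjusted p under 0.05 as the threshold and 95% moderated intervals. Errors are SE unless stated. The fit was tested on simulated data. Their noise was normal and independent between libraries, so the simulation does not cover a library that stands apart, as curcumin replicate 3 did. The naming rule left out gene segments, pseudogenes, mitochondrially encoded genes and unnamed clones. It always included 10 genes (Hmox1, Nfkbia, Il10, Il12b, Il6, Il1b, Tnf, Cd74, H2-Ab1 and Itgax) and up to 4 members with the smallest p of each list. Other genes (Mcpt8, Rela, Nfkb1, Nqo1, Txnrd1, Slc7a11, Gclm, Gsr, Cd4, Il7r, Cd3g, Cd28, Nfe2l2, Keap1, Xcr1, Stab2, Zbtb46, Flt3, Adgre1 and Csf3r) were named after their values were seen. The 44 lists held 614 distinct genes, of which 585 were tested, 27 were below the filter and 2 were listed at 0 in all libraries. List medians are given beside the median over all genes, with no test. Some members are not reported here. Members and lists were chosen with earlier results of these data known.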

Additional observations from a re-analysis of the deposited data

How the results depend on the processing

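Under all 15 alternatives 0 genes passed the limma test in DiI-negative cells, and likewise for the difference between gates wherever it could be fitted (not with the 6 DiI-negative libraries alone). The smallest adjusted p lay between 0.068 (Chl1, without empty replicate 2) and 1.0, and 359 to 1000 genes had an unadjusted p under 0.05, the most with library weights. With the replicate number as a block, 0 genes passed, the smallest adjusted p was 0.59 and 486 genes had an unadjusted p under 0.05. The numbers were not taken as pairs in the main fit, since the labels do not tell what they pair. Deviations of curcumin and empty libraries of the same number correlated with r = -0.087, 0.043 and -0.114 in DiI-negative cells. In DiI-positive cells they gave 0.028, 0.051 and 0.166. Libraries of the same liposome and number gave 0.004 to 0.328 across gates, so a link by number is not excluded. With no filter on low values, 24202 genes had an interval within ±1, as 24874 were tested. Centring on medians moved the median of all genes by 0.026.

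Most gene differences (2843 of gene and setting pairs) kept their direction, and 24 did not. Leaving out 1 library at a time gave Itgax -0.21 to 0.06, Tnf -0.01 to 0.38, Il12b -0.15 to 0.13, Irf8 -0.04 to 0.56, Tcf4 0.00 to 0.43, Ace -0.37 to 0.02, Sdc1 -0.08 to 0.51, Alas2 -0.04 to 0.45, Msrb1 -0.23 to 0.03, Gsdmd -0.29 to 0.01, Txnip -0.19 to 0.01 and Casp4 -0.28 to 0.07. It gave Apoe -0.66 to 0.08, Slc11a1 -0.58 to 0.05, Gapdh -0.03 to 0.16, Hk1 -0.03 to 0.20, Mcm6 -0.37 to 0.00, Bub1 -0.04 to 0.75 and Tgfb1 -0.05 to 0.17. After quantile normalization H2-Ab1 and Cd74 differed by 0.00. Cd74 had the highest value of every library, and this method gives genes of the same rank the same value. For Cd74 the 0.00 was thus fixed by the method and says nothing of its difference, and the ranks of H2-Ab1 were not looked up. Of list medians, 644 moved by less than the spread between libraries and 16 by more. That spread takes in curcumin replicate 3, so a median that rested on this library could still count among the 644. Medians without it are given above for the lists concerned. With 3 libraries a group and no read numbers, precision rests on the spread between libraries alone, and a difference as large as that of Prss34 (-1.57) did not pass the adjusted threshold.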

Other observations

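Of the 14227 genes, 7 differed by more than 1 on the log2 scale, 5 higher and 2 lower after curcumin. Prss34, Siglech and Clec4f are described above, and the other 4 were picked after their values were seen. Strip2, a component of a kinase and phosphatase scaffold complex, read 7.28, 7.27 and 8.07 in the curcumin DiI-negative libraries and 6.10, 6.21 and 6.11 in the empty ones. Its groups did not overlap, with a difference of 1.40 (95% interval 0.38 to 2.42; limma unadjusted p = 0.011). In DiI-positive cells Strip2 read 7.77 in curcumin replicate 3 and 5.61 to 6.16 in the other 5. When only the 6 DiI-negative libraries were fitted, Strip2 had the smallest p of all genes, with an adjusted p of 0.85.

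Lrg1, a secreted glycoprotein of neutrophils and hepatocytes, read 10.11, 9.07 and 8.93 after curcumin and 10.32, 11.05 and 10.96 after empty liposomes, a separate pair of groups with a difference of -1.41 (-2.41 to -0.40). Kdr, the VEGF receptor of endothelium, read 7.21, 7.90 and 8.35 against 7.24, 5.95 and 5.45, overlapping, with a difference of 1.60 (-0.93 to 4.14). Ltbp4, a TGF-beta binding protein of the matrix, read 6.01, 4.61 and 7.09 against 4.6, 4.66 and 4.74. Curcumin replicate 3 was the highest of the 6 for Kdr and for Ltbp4, and the same number in DiI-positive cells read 11.68 for Kdr (5.46 to 7.78 in the other 5) and 13.60 for Ltbp4 (4.59 to 5.91 in the other 5).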
